A study of Mus musculus with 8 samples.

Results

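Expression of 10 genes that mark the upper part of the hair follicle was examined, out of 49315 genes counted: Krt79, Plet1, Lgr6, Teddm3, Gata6, Sostdc1, Defb6, Cst6, Klk10 and Atp6v1c2. They were taken from a list of isthmus, junctional zone and infundibulum markers, and each was found by its Ensembl identifier. The RNA came from back skin epidermis, labelled as keratinocytes, of 22-month-old mice, with 5 libraries from Tgfa knockout (KO) mice and 3 from wild-type (WT) mice. Tgfa encodes the EGF receptor ligand transforming growth factor alpha. The structure of the knockout allele, the strain and the sex were not given in the sources used here, and the labels do not say whether each library came from 1 animal.

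The upper follicle is the stretch of the pilosebaceous unit between the bulge and the skin surface. Its lowest segment is the isthmus, above it lies the junctional zone where the sebaceous duct joins, and the infundibulum forms the funnel that opens at the surface. In mice these segments hold their own stem cell pools, which normally renew the upper follicle and the sebaceous gland and can move into the epidermis after wounding.

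The libraries differed from each other in ways that did not follow genotype. Total counts were 5313552 to 17417500 in KO and 12968728 to 18292303 in WT. Tgfa itself was 34.4 to 70.1 CPM (counts relative to library size after TMM scaling) in KO replicates 2 to 5, against 85.1 to 112 in WT, but it was 132 in the library labelled KO replicate 1, which goes against that label. KO replicate 2 was the shallowest library and had the most counts on olfactory and vomeronasal receptor genes, which keratinocytes should lack (3725 CPM of its total, against 613 CPM or less elsewhere). The share of counts on Malat1, a noncoding RNA that stays in the nucleus, was 4.88% in the library labelled KO replicate 1 and 6.61% in WT replicate 3, against 1.34% to 1.84% elsewhere. Library names end in br for KO replicates 1 and 2 and for all WT libraries, and in bl for KO replicates 3 to 5, and what the endings mean was not given in the sources used here. Markers of basal keratinocytes were high in every library, with Krt5 at 1877 CPM or more in KO and 1844 or more in WT, while the 5 fibroblast markers summed to 2.94 to 57.0 CPM in KO and 25.7 to 31.4 in WT.

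All 10 genes had counts in all 8 libraries and passed the filter on low counts. In 3 of them the KO and WT libraries did not overlap: Krt79 and Sostdc1 were higher in every KO library, and Plet1 was lower in every KO library. Over all 19239 genes tested, 3.4% were higher without overlap and 1.75% lower without overlap. In the edgeR quasi-likelihood test over all genes, 0 of the 10 passed an adjusted p of 0.05 (background 0.0052% higher and 0.0% lower). At an unadjusted p under 0.05, 4 were higher (Krt79, Sostdc1, Teddm3 and Defb6) and 1 lower (Plet1), against 4.44% and 1.85% of all genes. The 10 were chosen with earlier results of these data known. Their counts beside shares of all genes, here and below, are therefore descriptions and not a test of the set. Limma voom without library weights called 0 of the 10, and DESeq2 called 2 higher, Krt79 and Sostdc1 (background 0.226%), and 0 lower (background 0.093%). The DESeq2 shares are over 43007 genes, without the filter on low counts, so they are not comparable with those over 19239 genes. The median log2 fold change of the 10 was 0.47, with 9 positive and 1 negative, while the median over all tested genes was 0.16 and 61.9% of them were positive. In bulk tissue, a different number of upper follicle cells, a different level per cell and transcript from other cells cannot be told apart.

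**Figure D1:**
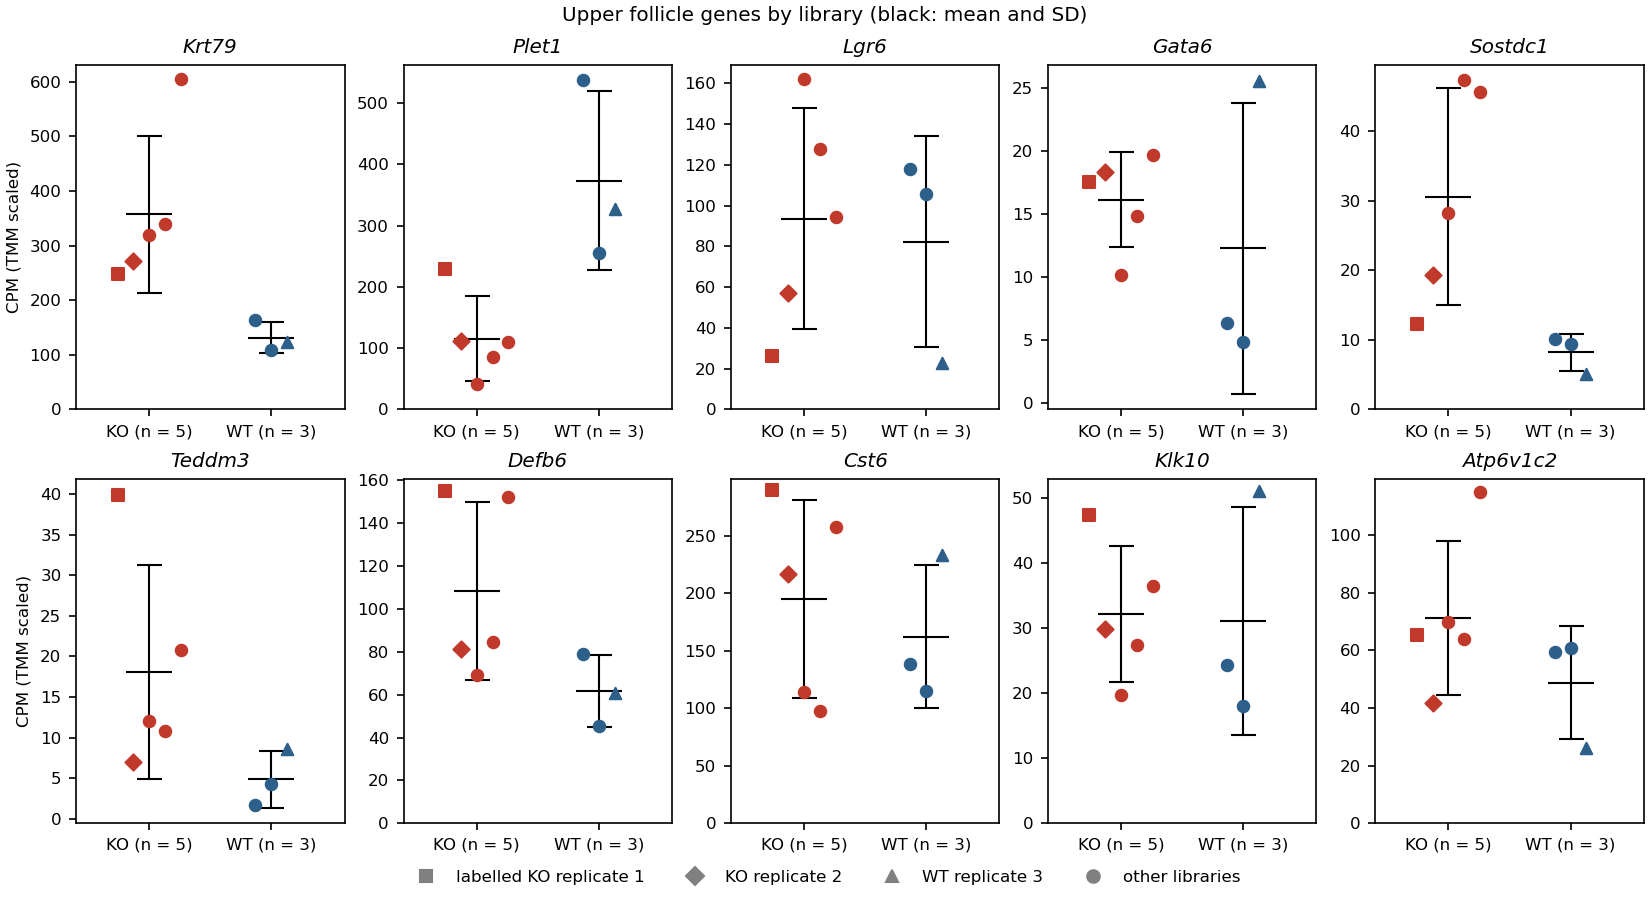
CPM of each of the 10 genes (vertical axis, linear) in the 5 KO libraries (red) and the 3 WT libraries (blue), with mean and SD in black. Squares mark the library labelled KO replicate 1, diamonds KO replicate 2 and triangles WT replicate 3. Krt79 and Sostdc1 lie higher in every KO library than in any WT library, Plet1 lies lower, and Lgr6 is lowest in the squares, diamonds and triangles.

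Where transcripts were compared between genes, counts were divided by exon length and scaled to a common total (TPM). On this scale Defb6 had the highest mean level of the 10 in KO, at 799.8 ± 388 TPM (SD, n = 5), followed by Krt79 at 429.7 ± 264 and Plet1 at 131 ± 69.2. In WT the first place was held by Plet1 at 505 ± 244 TPM (SD, n = 3), next to Defb6 at 499 ± 175, with Krt79 next at 163 ± 50.2. Cst6, Atp6v1c2 and Klk10 kept the fourth to sixth places in both groups, at 54.4 to 111 TPM in KO and 57.5 to 105 in WT. Sostdc1, Lgr6, Teddm3 and Gata6 were the scarcest, at 11.8 to 46.4 TPM in KO and 8.96 to 31.9 in WT, and the ranges of neighbours in this stretch of the order overlapped. TPM are not corrected for library composition, and on that scale the Krt79 groups overlapped, at 155 to 825 TPM in KO and 128 to 221 TPM in WT. The Sostdc1 groups overlapped too, at 13.1 to 85.0 TPM in KO and 7.09 to 16.3 TPM in WT, while those of Plet1 did not, at 59.9 to 227 TPM in KO and 329 to 783 TPM in WT.

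Krt79, a type II keratin of the infundibulum and of the cells that line the forming hair canal in mice, was 248, 272, 320.2, 340.3 and 605 CPM in KO replicates 1 to 5, against 163, 108 and 123 CPM in WT replicates 1 to 3. The lowest KO library was above the highest WT library, and KO replicate 5 stood apart at the top. KO against WT gave a log2 fold change of 1.44 (SE 0.34, interval of 95% from 0.68 to 2.21, adjusted p = 0.431 in edgeR, two-sided exact permutation p = 0.0179, the smallest that the 56 splits of 8 libraries allow). The gene (ENSMUSG00000061397) lies on chromosome 15 (101929332 to 101940324, minus strand, GRCm38) with 9 exon blocks. Among libraries ending in br alone the value was 0.91 (adjusted p = 0.993), and with only the KO libraries ending in bl against WT it was 1.63 (adjusted p = 0.0646).

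Plet1, which encodes a glycosylphosphatidylinositol-anchored surface protein known from the MTS24 antibody as a marker of the isthmus, went the other way. It was 229.5, 112, 41.3, 85.1 and 110.1 CPM in KO replicates 1 to 5, against 537, 256 and 327 CPM in WT. The library labelled KO replicate 1 was just under the lowest WT library, and the other 4 KO libraries were at 112 CPM or less. The fold change on the log2 scale was -1.69 (SE 0.47, interval of 95% from -2.74 to -0.64, adjusted p = 0.553 in edgeR, two-sided exact permutation p = 0.0179). It was -1.16 among libraries ending in br (adjusted p = 0.993) and -2.29 with the KO libraries ending in bl alone against WT (adjusted p = 0.0646). Plet1 (ENSMUSG00000032068) lies on chromosome 9 (50494525 to 50505482, plus strand), where 261 bp of exon are shared with the antisense gene Plet1os. Plet1os was 5.55 ± 2.35 CPM in KO (SD, n = 5) and 14.2 ± 8.86 in WT (n = 3). Reads in the shared bases cannot be assigned to 1 of them, since strandedness was not given in the sources used here.

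The ratio of Krt79 to Plet1 within a library does not depend on scaling. It was 1.08 in the library labelled KO replicate 1 and 2.43, 7.76, 4.0 and 5.49 in KO replicates 2 to 5, against 0.304, 0.421 and 0.375 in WT replicates 1 to 3. Krt79 thus had the higher CPM of the pair in each KO library and Plet1 in each WT library. The pair was chosen because its members were known to differ in opposite directions, so the ratio is a description and was not tested.

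Of the 10 genes, 7 have an entry among the RefSeq promoter sequences (GRCm38.p6). The 250 bases before the RefSeq start, which for Teddm3 differs from the start in the count tables, are shown for Plet1, the gene that was lower, and for 2 genes with positive values, Krt79 and Teddm3, at chr9:50494275-50494524 (plus strand), chr15:101940325-101940574 (minus strand) and chr16:21153945-21154194 (minus strand). Capitals mark a TATAAA match, the core of the TATA box.

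Plet1: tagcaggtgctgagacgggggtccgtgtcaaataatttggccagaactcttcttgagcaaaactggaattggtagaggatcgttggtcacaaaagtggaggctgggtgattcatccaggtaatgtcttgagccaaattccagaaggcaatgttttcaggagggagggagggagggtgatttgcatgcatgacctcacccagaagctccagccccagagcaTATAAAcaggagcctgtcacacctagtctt
Krt79: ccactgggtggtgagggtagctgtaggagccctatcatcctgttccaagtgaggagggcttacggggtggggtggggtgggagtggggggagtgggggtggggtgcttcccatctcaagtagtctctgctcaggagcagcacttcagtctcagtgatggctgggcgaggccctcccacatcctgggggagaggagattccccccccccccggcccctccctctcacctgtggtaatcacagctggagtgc
Teddm3: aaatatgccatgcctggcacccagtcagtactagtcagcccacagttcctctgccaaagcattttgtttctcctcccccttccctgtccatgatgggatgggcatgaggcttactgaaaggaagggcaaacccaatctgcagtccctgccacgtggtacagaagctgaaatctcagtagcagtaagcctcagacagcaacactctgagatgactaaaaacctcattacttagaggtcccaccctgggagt

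A set of 4 motifs was searched on both strands in the 7 promoters and in all 32851 promoters of the table. TATAAA was in 1 of the 7, Plet1, with its first base 30 bases before the start, and in 12.4% of all promoters. AGATAA, a sequence bound by GATA factors, was in 1 of the 7, Defb6 (115 bases before the start), and in 9.99% of all. TGACTCA, the AP-1 site, and GACCACCCA, the GLI site, were in 0 of the 7 and in 4.46% and 0.225% of all promoters. The motifs share no letters at these matches, and a match is a description of the letters only.

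Lgr6, a receptor for R-spondins that marks stem cells of the isthmus in mice, varied as much within as between the genotypes. It was 26.2, 57.0, 162, 128 and 94.6 CPM in KO replicates 1 to 5, against 118, 106 and 23.0 CPM in WT replicates 1 to 3. The library labelled KO replicate 1, KO replicate 2 and WT replicate 3 were the 3 lowest, and the other 5 were all at 94.6 CPM or more. Its log2 difference between KO and WT was 0.18 (SE 0.62, interval of 95% from -1.2 to 1.56, adjusted p = 0.967 in edgeR). Lgr6 (ENSMUSG00000042793) lies on chromosome 1 (134983301 to 135105276, minus strand). Its log2 value turned to -1.13 among libraries ending in br. The same 3 libraries had the lowest summed level of 5 basal keratinocyte markers (Krt5, Krt14, Col17a1, Itga6 and Trp63), at 6984 CPM, 5399 CPM and 3973 CPM, against 10071 to 13119 CPM in the other 5. The part of the basal markers in the Lgr6 level was not tested. Background counts judged from receptor genes were 9.49% of the Lgr6 count in KO replicate 2 and 4.26% in WT replicate 3. Lgr4, a related receptor, was 81.9 ± 13.8 CPM in KO and 83.2 ± 10.7 in WT (log2 fold change -0.02, adjusted p = 0.988).

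Teddm3, a gene of the transmembrane epididymal family, was 39.9, 6.95, 12, 10.8 and 20.8 CPM in KO replicates 1 to 5, against 1.68, 4.3 and 8.6 CPM in WT. KO replicate 2 was under WT replicate 3, so the groups overlapped by that 1 library, and the library labelled KO replicate 1 was the highest. KO over WT came to a log2 fold change of 1.91 (SE 0.67, interval of 95% from 0.42 to 3.4, adjusted p = 0.67 in edgeR, two-sided exact permutation p = 0.0714). Of the 10 genes it had the widest range, with 23.7 times between the highest and the lowest library. Its counts were low, from 30 in WT replicate 1 to 541 in the library labelled KO replicate 1, and background counts came to 15.3% of the 40 counts in KO replicate 2. Teddm3 (ENSMUSG00000090356) is a gene of 1 exon on chromosome 16 (21152655 to 21154000, minus strand). Of the 3 other Teddm genes, Teddm2 had the highest level, at 3.07 ± 2.6 CPM in KO (SD, n = 5) and 1.22 ± 0.237 CPM in WT (n = 3). In KO replicate 2, the library with the most receptor gene counts, it was 7.47 CPM, above Teddm3. It was 1.03 to 3.06 CPM in the rest of KO. The background share of the Teddm2 counts was not estimated.

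**Figure D2:**
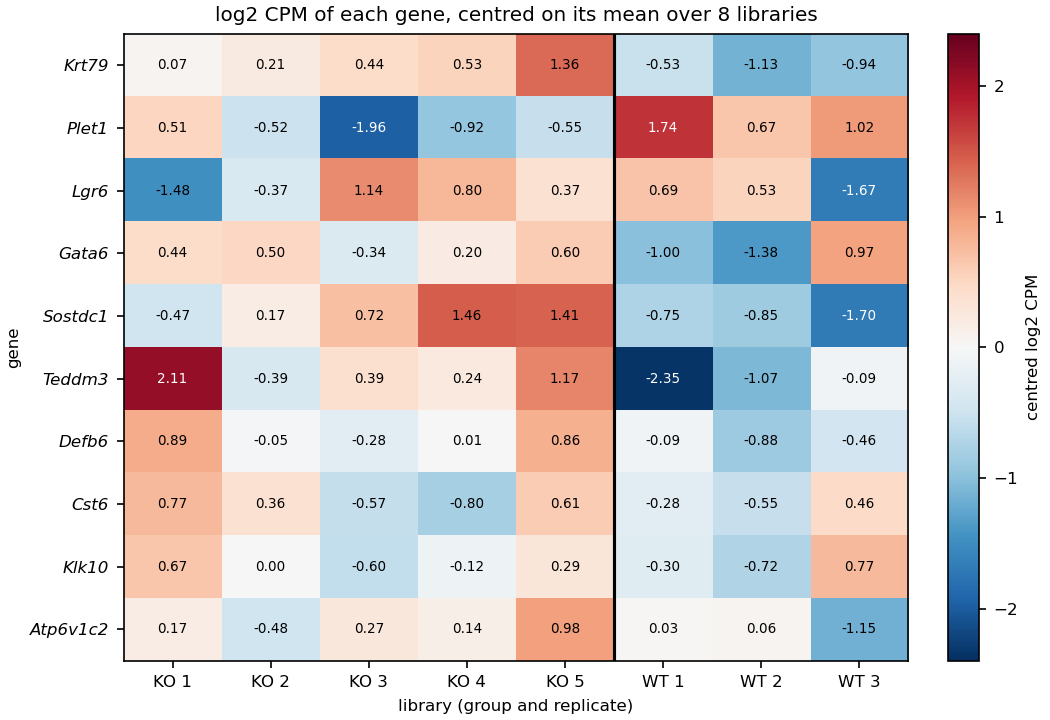
Level of each gene in each library as log2 CPM minus the mean of that gene over the 8 libraries (colour and printed value), with KO libraries left of the line and WT libraries right of it. Krt79 and Sostdc1 are positive or above every WT value across the KO columns, Plet1 shows the opposite order, and Lgr6 is most negative in KO 1 (-1.48) and WT 3 (-1.67).

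Of the 2 regulators, Sostdc1 separated the groups and Gata6 did not. Sostdc1 encodes a secreted antagonist of BMP and Wnt signals. It was 12.3, 19.3, 28.3, 47.4 and 45.7 CPM in KO replicates 1 to 5, against 10.1, 9.39 and 5.16 CPM in WT. All KO libraries were higher than all WT libraries, by the smallest margin in the library labelled KO replicate 1, and with library totals in place of TMM the groups overlapped. In log2 units the fold change was 1.9 (SE 0.48, interval of 95% from 0.83 to 2.96, adjusted p = 0.487 in edgeR, two-sided exact permutation p = 0.0357). It was 0.83 among libraries ending in br (adjusted p = 0.993) and 2.25 with the KO libraries ending in bl alone against WT (adjusted p = 0.0586). Sostdc1 (ENSMUSG00000036169) lies on chromosome 12 (36314169 to 36318452, plus strand).

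Gata6, a transcription factor gene of the junctional zone and sebaceous duct in mice, was 17.6, 18.4, 10.2, 14.9 and 19.7 CPM in KO replicates 1 to 5, against 6.38, 4.9 and 25.6 CPM in WT. WT replicate 3 was the highest of all 8 libraries and the other WT libraries were the lowest. Between KO and WT the log2 fold change was 0.4 (SE 0.51, interval of 95% from -0.73 to 1.53, adjusted p = 0.935 in edgeR), and it ran from -0.34 without WT replicate 2 to 1.5 without WT replicate 3. The identifier of Gata6 is ENSMUSG00000005836, and it shares 58 bp of exon with the antisense gene 1010001N08Rik, which had 60 counts in all. Gata3, the GATA factor with the highest level in this epidermis, was 614 ± 264 CPM in KO and 723 ± 259 in WT.

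The KO and WT libraries overlapped for Defb6, Cst6 and Klk10, which like Sostdc1 encode secreted proteins. Defb6, a beta-defensin gene, was 155, 81.3, 69.3, 84.4 and 152 CPM in KO replicates 1 to 5, against 78.8, 45.5 and 60.7 CPM in WT. Its groups overlapped because KO replicate 3 was under WT replicate 1, with a log2 fold change of 0.81 (SE 0.34, interval of 95% from 0.05 to 1.58, adjusted p = 0.741 in edgeR), and of 0.43 without WT replicate 2. Cst6, which encodes cystatin M, an inhibitor of legumain and cathepsins, ranged over 97.3 to 289.8 CPM among KO libraries and 115 to 233 CPM among WT libraries. The log2 fold change was 0.26 (SE 0.41, interval of 95% from -0.65 to 1.18, adjusted p = 0.935 in edgeR). Klk10, a kallikrein-related peptidase gene, was 19.7 to 47.5 CPM in KO and 18.1 to 51.1 in WT, with a log2 fold change of 0.05 (SE 0.38, interval of 95% from -0.79 to 0.89, adjusted p = 0.986 in edgeR). Defb6 (ENSMUSG00000050756) lies on chromosome 8 (19225478 to 19228209, plus strand), Cst6 (ENSMUSG00000024846) on chromosome 19 (5344705 to 5349574, minus strand) and Klk10 (ENSMUSG00000030693) on chromosome 7 (43781035 to 43785410, plus strand). The intervals of Cst6 and Klk10 exclude neither a higher nor a lower level.

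Atp6v1c2 encodes an isoform of the C subunit of the vacuolar proton pump. It was 65.4, 41.7, 70.0, 64.1 and 115 CPM in KO replicates 1 to 5, against 59.3, 60.8 and 26.1 CPM in WT, with the lowest values in WT replicate 3 and KO replicate 2. The log2 fold change was 0.55 (SE 0.37, interval of 95% from -0.28 to 1.38, adjusted p = 0.885 in edgeR). It was 0.24 without WT replicate 3 and 0.08 within the br libraries. Atp6v1c2 (ENSMUSG00000020566) lies on chromosome 12 (17284721 to 17329359, minus strand) and shares 50 bp of exon with Pdia6 on the other strand. Atp6v1c1, the other C subunit gene counted, was 24.1 ± 4.68 CPM in KO and 26.6 ± 1.31 in WT.

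The number of the 10 that passed differed with the weight given to 3 libraries. In limma voom with library weights, which counts noisier libraries less, the weight was 0.28 for the library labelled KO replicate 1, 0.37 for KO replicate 2, 0.34 for WT replicate 3 and 1.47 to 2.26 for the rest. In this fit 4 of the 10 rose (background 3.39%) and 1 fell (background 3.07%). The KO libraries with most of the weight all end in bl and the WT libraries in br, so genotype and label ending are largely confounded in these calls. Those that rose were Sostdc1 (log2 fold change 1.96, limma adjusted p = 0.00671), Krt79 (1.57, adjusted p = 0.00579), Teddm3 (2.13, adjusted p = 0.0192) and Gata6 (1.22, adjusted p = 0.0442). Plet1 fell by 2.18 on the log2 scale (adjusted p = 0.00773). In edgeR without those 3 libraries, Gata6 (1.37, adjusted p = 0.0223), Sostdc1 (2.02, adjusted p = 0.00237) and Teddm3 (2.26, adjusted p = 0.0273) rose, 3 of 10 against a background of 5.25%, and 0 fell (background 5.32%). Krt79 was 1.61 (adjusted p = 0.073) and Plet1 -2.36 (adjusted p = 0.1) there. The KO libraries left in that comparison all end in bl and the WT libraries in br, so genotype and label ending cannot be told apart in it. The 3 libraries left out have the lowest weights, which come from these same counts, so the comparison is not an independent check. WT replicate 3, left out there, had the highest Gata6 of all 8 libraries. Within the libraries ending in br the members without overlap were also Krt79, Sostdc1 and Plet1 (background 8.62% higher and 5.28% lower), which for genes separated over all 8 libraries follows from taking a subset of them. With only the KO libraries ending in bl against WT, Teddm3 and Atp6v1c2 were also higher without overlap, 4 higher and 1 lower of 10 beside backgrounds of 16.9% and 14.3%. Without the 3 libraries of low weight Gata6 joined them, 5 higher and 1 lower beside 23.2% and 22.6%.

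**Figure D3:**
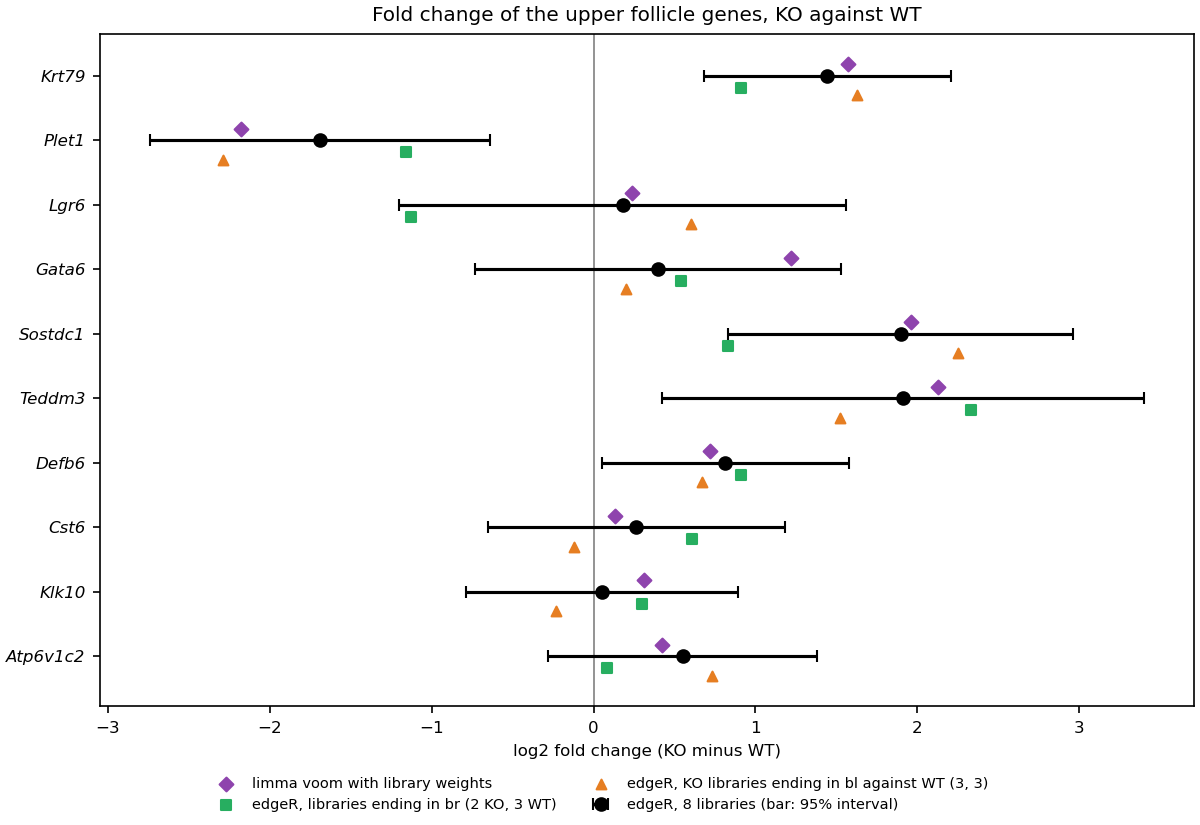
Log2 fold change (horizontal axis, KO minus WT) of the 10 genes in edgeR over 8 libraries (black, with 95% interval), limma voom with library weights (diamonds), edgeR in libraries ending in br (squares) and edgeR with the KO libraries ending in bl against WT (triangles). Plet1 lies left of 0 and Krt79, Gata6, Sostdc1, Teddm3, Defb6 and Atp6v1c2 right of 0 in all 4. The values of Lgr6, Cst6 and Klk10 lie on both sides.

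The genes whose levels over the 8 libraries were closest to those of the 3 separating genes were sought among 12490 tested genes. These had a mean of at least 2 CPM, and predicted genes and genes named only by a clone or accession were left out. Likeness was the root mean square difference of centred log2 CPM. Closest to Krt79 were Runx1, a transcription factor gene (0.2), Lbh (0.29) and Pcx, which encodes pyruvate carboxylase (0.29). Closest to Plet1 were Arg1, which encodes arginase (0.43), Timp3, a metalloproteinase inhibitor gene (0.48), and the overlapping Plet1os (0.48). Closest to Sostdc1 were Kif26b, a kinesin family gene (0.24), Gas1 (0.33) and Snx24 (0.36). Among the 10 themselves, Krt79 was nearest to Sostdc1 (0.49) and Defb6 (0.53), and Plet1 was at least 1.1 from every other member.

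Related genes were counted by list. Shares of all genes called with library weights were 3.39% higher and 3.07% lower, beside which the weighted calls in each list stand. Genotype and label ending are largely confounded in these weighted calls too, here and for the compartments below. Of 9 further upper follicle genes, 0 passed in edgeR and 0 in the fit with library weights (median log2 fold change 0.22, with 6 positive and 3 negative). Krt17, a keratin of the follicle sheath, was 538 ± 391 CPM in KO and 636 ± 466 CPM in WT (SD, n = 5 and n = 3). Lrig1, an ErbB inhibitor that marks the junctional zone, was 112 ± 17 CPM in KO and 96.5 ± 10.1 CPM in WT. Prdm1, a transcriptional repressor gene, was 109 ± 105 CPM in KO and 169.9 ± 50.1 CPM in WT. Of 8 R-spondin pathway genes 5 were tested and 0 passed (median 0.06). Of 8 genes of BMP ligands and receptors and of Lrp proteins, which Sostdc1 acts on, 0 passed in edgeR (median 0.07), while with library weights Bmp7 rose (0.71, limma adjusted p = 0.0304) and Bmp2 fell (-1.07, limma adjusted p = 0.0131). Of 4 enzymes of the Cst6 protease pathway, 0 passed in edgeR (median -0.05), and Tgm3, a transglutaminase gene of the cornified envelope, rose with library weights (1.45, limma adjusted p = 0.0226). In edgeR and in the fit with library weights alike, 0 of 9 other kallikreins (median 0.09), 0 of 10 other vacuolar pump subunits (median -0.11) and 0 of the 1 tested of 4 other beta-defensins passed. Of 9 type II keratins 7 were tested and 0 passed in edgeR (median 0.13), and with library weights Krt6a (1.84) and Krt6b (4.2) rose and Krt80 (-0.8) fell, with limma adjusted p of 0.0244, 0.0331 and 0.0447.

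**Figure D4:**
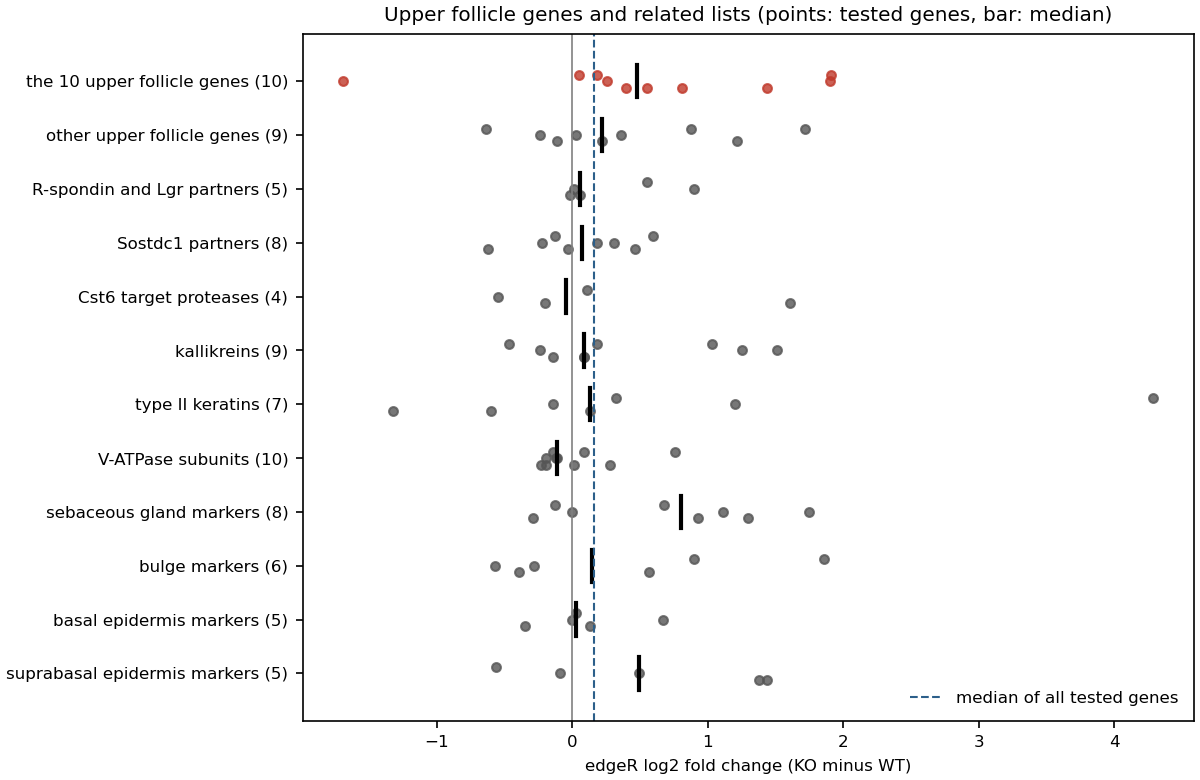
Log2 fold changes (horizontal axis, edgeR, KO minus WT) for the 10 upper follicle genes (red) and for 11 related lists (grey), with the number of tested genes in parentheses, the list median as a black bar and the median of all tested genes, 0.16, as a dashed line. The 10 upper follicle genes spread from -1.69 to 1.91 around a median of 0.47.

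Levels of neighbouring compartments are given beside these values, and their part in them was not tested. Of 9 sebaceous gland markers 8 were tested, with a median log2 fold change of 0.8, 5 positive and 3 negative, and a summed level of 666 to 1188 CPM in KO and 836 to 1254 in WT. Mgst1 alone of them rose with library weights (1.58, limma adjusted p = 0.0247). Of 6 bulge markers 3 were positive and 3 negative (median 0.14), with summed levels of 554 to 871 CPM in KO and 397 to 1325 in WT, and Postn alone rose with library weights (2.21, limma adjusted p = 0.00321). Of 5 suprabasal epidermis markers 3 were positive and 2 negative (median 0.49), and they summed to 21805, 5635, 14697, 13036 and 16719 CPM in KO replicates 1 to 5, against 11004, 8689 and 6666 CPM in WT. All KO libraries except replicate 2 were above WT in that sum, and Krt1, a keratin of differentiating cells, rose with library weights (1.33, limma adjusted p = 0.0264; 4081 ± 1437 CPM in KO and 1501 ± 982 CPM in WT). The 6 inner root sheath and hair shaft markers, all positive with a median of 2.11, had their highest sum in KO replicate 5 (685 CPM), against 22.3 to 71.7 CPM for KO replicates 1 to 4 and 28.8 to 37.4 CPM for WT, and Krt31 was at 0 in KO replicate 3. KO replicate 5 was also the library with the highest Krt79 and Atp6v1c2. Without it the log2 fold change of Krt79 was 1.17 (adjusted p = 0.661 in edgeR). The 3 endothelial, 3 muscle and 3 adipocyte markers were highest in KO replicate 2, at 40.3, 20.0 and 14.4 CPM summed, against at most 4.2, 3.69 and 4.35 CPM for the rest of KO and 8.83, 5.78 and 4.22 CPM for WT. KO replicate 2 also had the most counts on receptor genes that keratinocytes should lack. The part of such background in these 3 sums was not tested. Of 5 immune markers 3 were positive and 2 negative (median 0.16), and the 5 summed to 148 to 379 CPM in KO and 332 to 384 CPM in WT. Cd207, of Langerhans cells, alone of them fell with library weights (-1.18, limma adjusted p = 0.0192).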

How the data were processed

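The authors deposited raw, unscaled counts of reads for each Ensembl gene, 1 table for each of the 8 libraries. RNA isolated with Trizol and a spin column went into NEBNext Ultra II libraries read in pairs on a NovaSeq, per the labels' protocols. The tools named are Trimmomatic 0.36, STAR 2.5.2b and, from Subread 1.5.2, featureCounts, with the builds GRCh38 and GRCm38, per the submitters' processing notes. All 49056 genes matched to GENCODE release M21 (GRCm38) lie on the same chromosome there, and 91.4% have the same start and end. How strand and multi-mapping reads were handled was not given in the sources used here.

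Groups came from the genotype label, and replicates were numbered in order of deposition, which pairs none of them. P-values set the difference between KO and WT against the spread between these libraries, which may be technical. Since the labels do not say whether each library came from 1 animal, the p-values may not extend to animals. The members and lists were chosen with earlier results of these data known. The test was that of edgeR 4.0.16 under R 4.3.3 (quasi-likelihood, robust, TMM, filterByExpr, genotype as the only factor), with Benjamini-Hochberg adjustment over all 19239 genes. The biological coefficient of variation was 63.7%. Limma 3.58.1 and DESeq2 1.42.0 were alternatives. Like edgeR, they were run on simulated counts with the same spread in every library. That simulation cannot show how the methods treat noisier libraries, background counts or label endings. Log2 CPM used a prior count of 2, and single genes had a two-sided exact permutation test of their mean log2 CPM. That test was run on all 10 members without adjustment. For members given above without it, the permutation p was 0.107 for Defb6, 0.25 for Gata6 and 0.268 for Atp6v1c2. It was 0.75 for Lgr6, 0.75 for Klk10 and 0.786 for Cst6. Background counts per kb came from olfactory and vomeronasal receptor genes. All 10 members are named, with members past the threshold or the most abundant of each related list, and the closest profiles of 3 members. Atp6v1c1 and Krt31 were added after their values were seen.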

Additional observations from a re-analysis of the deposited data

Results flagged for a closer look

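Krt79 in KO replicate 5, at 605 CPM, was far above the other KO libraries (248 to 340.3 CPM) for a group of 5. Chance alone marks about 1 group in 20 in this way, and 10 genes were looked at. The WT group, with 3 libraries, could not be examined so. The same library had the highest sum of inner root sheath and hair shaft markers, 685 CPM, and the part of that in the Krt79 level was not tested.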

How the results depend on the processing

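The count of genes called over all genes was 1 in edgeR. It was 137 in DESeq2, 0 in limma voom (1386 at an unadjusted p under 0.05), 1243 with library weights, 0 with RLE (1225) or upper quartile (1389) normalization, 9 with no filter on low counts, 0 among libraries ending in br (537), 21 with the KO libraries ending in bl against WT, 1883 without WT replicate 3 and KO replicates 1 and 2, and 0 to 1 with 1 library left out. Of the 10 members 0 were called in edgeR (0.0052% of all genes higher and 0.0% lower). DESeq2 called 2 (0.226% and 0.093% of 43007 genes). With library weights 5 were called (3.39% and 3.07% of all genes), and without those 3 libraries 3 were (5.25% and 5.32%). Members without overlap numbered 3, and 5 with KO libraries ending in bl alone (16.9% of all genes higher and 14.3% lower), 6 without those 3 libraries (23.2% and 22.6%) and 3 to 5 with 1 library left out. The 5 came without WT replicate 3 (6.48% and 6.96% of all genes) and without KO replicate 2 (6.13% and 4.52%). There were 4 without WT replicate 1 (4.43% and 1.76%) and without KO replicate 3 (3.92% and 2.14%). With all libraries the shares were 3.4% and 1.75%, so the counts are not comparable. Of 210 member values under 21 alternatives, 188 kept their direction and side of the threshold, 10 passed it and 12 changed sign. Lgr6 was -1.13 among libraries ending in br, -1.0 with the ending as a covariate, -0.27 without WT replicate 3 and -0.11 without KO replicate 3. Gata6 was -0.34 without WT replicate 2. Cst6 was -0.12 with KO libraries ending in bl and -0.21 without WT replicate 2. Klk10 was -0.06 with upper quartile normalization, -0.23 with KO libraries ending in bl, -0.04 and -0.52 without WT replicates 1 and 2 and -0.14 without KO replicate 1. With the ending as a covariate, Krt79 was 0.99, Sostdc1 0.93 and Plet1 -1.13. Subtracting background counts moved no call of a member. With 1 library left out the highest values were 0.54 for Lgr6 (without WT replicate 1) and, without WT replicate 3, 1.5 for Gata6, 0.6 for Cst6 and 0.59 for Klk10. Teddm3 ran from 1.39 without KO replicate 1 to 2.6 without WT replicate 3, Defb6 from 0.43 without WT replicate 2 to 1.08 without WT replicate 1, and Atp6v1c2 from 0.24 without WT replicate 3 to 0.74 without WT replicate 1. The causes of these shifts were not tested. No paired analysis was possible because the replicate numbers only name libraries.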
